A study of Homo sapiens with 6 samples.

Results

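YAP1, the TEAD transcription factors and their vestigial-like cofactors form the nuclear end of the Hippo pathway, and their RNA is described here in SN12C cells with and without knockdown of YAP and TAZ. The group holds 7 genes chosen by name: YAP1, TEAD1, TEAD2, TEAD3, TEAD4, VGLL3 and VGLL4. A member was measured where the supplied platform annotation gave its symbol to a probe detected on at least 3 of the 6 arrays, with detection meaning a detection p-value under 0.05. This held for 4 of the 7 members, YAP1, TEAD2, TEAD4 and VGLL4, each with 1 probe, out of 11646 genes measured in the same way. No kept probe carried the symbol TEAD1, TEAD3 or VGLL3. The annotation left 4851 of 20348 kept probes without a name, so these 3 genes were not analysed here and were not counted as undetected.

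YAP1 is a co-activator that does not bind DNA itself. Kinases of the Hippo pathway phosphorylate YAP1 and its paralogue TAZ, which is encoded by WWTR1, and hold them outside the nucleus. When free of that restraint they enter the nucleus and act mainly through the TEAD proteins, a family of DNA-binding factors with overlapping sequence preference. Vestigial-like proteins such as VGLL4 bind the TEAD proteins in place of YAP1, and VGLL4 is known as a repressor of YAP-TEAD activity.

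SN12C is an established human renal carcinoma cell line, and the series concerns tumour cells deficient in NF2, an upstream activator of the Hippo kinases. Control cells carried the pTripz vector with GFP-luc, and knockdown cells carried pTripz vectors with a YAPsh and a TAZsh hairpin together with GFP-luc. All cells in both groups were given doxycycline, the inducer of the hairpins, for 3 days or more and had no serum during the last 24 hours. Each group was measured on 3 Illumina bead arrays, numbered 1 to 3, which the series calls technical repeats, so p-values measure the spread between arrays and not between cultures. The labels do not say whether a line is a single clone. Group and transduced line coincide, and the labels name no hairpin for the controls. Differences between the lines, off-target effects of the hairpins and loss of YAP and TAZ thus cannot be told apart. In such bulk samples fewer cells that express a gene and less of its RNA per cell cannot be told apart. The hairpins target YAP1 itself, so its fall is a check of the labels.

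The arrays detected 41.6% to 44.3% of 47315 probes, and the median raw intensity lay between 87.6 and 102.4. Of 10 listed markers of renal epithelium and renal carcinoma, PAX8, KRT8, KRT18 and VIM were detected on all 6 arrays and EPCAM on some, and PAX2, LHX1, CDH16 and CA9 were among those with no named kept probe. The summed normalized intensity of the 5 measured markers was 8859 to 10063 on the control arrays and 6158 to 6937 on the knockdown arrays. Of 6 leukocyte markers CD14 was detected on all 6 arrays and CD79A on some. Their sum was 182 to 210 on the control arrays and 277 to 340 on the knockdown arrays. PTPRC, CD3E and LYZ were among those with no named kept probe, as were all 5 endothelial markers. The sums add linear intensities, so the brightest markers weigh most. SN12C is a cell line, so the sums were read as probe signal and not as shares of cell types. The part of these shifts in the results below was not tested.

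The promoters of the targeted co-activator and of the member that rose are shown first, since TEAD factors act through short DNA motifs. Each run is the 250 bases before a RefSeq start site on GRCh38.p14, read 5′ to 3′ on the gene's strand, and capitals mark a CATTCC motif on either strand, the core of the element that TEAD factors bind.
YAP1, chr11:102110197-102110446, plus strand: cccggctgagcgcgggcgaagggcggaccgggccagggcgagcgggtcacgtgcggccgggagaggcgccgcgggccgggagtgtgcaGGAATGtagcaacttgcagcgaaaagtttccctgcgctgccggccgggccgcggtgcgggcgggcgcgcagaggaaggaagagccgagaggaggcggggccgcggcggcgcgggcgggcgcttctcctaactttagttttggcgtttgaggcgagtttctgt
TEAD2, chr19:49362417-49362666, minus strand: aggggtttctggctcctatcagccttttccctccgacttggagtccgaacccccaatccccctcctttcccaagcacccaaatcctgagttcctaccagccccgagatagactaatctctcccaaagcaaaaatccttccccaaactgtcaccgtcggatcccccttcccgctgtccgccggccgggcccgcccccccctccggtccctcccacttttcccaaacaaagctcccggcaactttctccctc
TEAD2, chr19:49361518-49361767, minus strand: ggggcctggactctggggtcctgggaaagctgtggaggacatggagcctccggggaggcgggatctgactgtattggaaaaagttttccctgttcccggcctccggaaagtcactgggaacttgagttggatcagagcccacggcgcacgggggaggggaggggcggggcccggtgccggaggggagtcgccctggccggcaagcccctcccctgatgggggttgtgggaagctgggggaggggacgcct
The YAP1 window held 1 CATTCC motif, on the minus strand, from 162 to 157 bases before the start. Neither of the 2 TEAD2 windows held one, nor did the windows of TEAD3 (1 start), VGLL3 (1 start) and VGLL4 (5 starts). The motif was present in 11.9% of the 35116 RefSeq windows of the same length. TGANTCA, the element of AP-1 factors, which share many sites with TEAD factors, was searched on both strands too. Its last bases can overlap the first of CATTCC, and no such overlap occurred here. TGANTCA was in none of the 10 windows of these members and in 6.57% of all windows. TEAD1 and TEAD4 were not in the promoter table. A motif match describes letters only, and binding was not measured.

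YAP1 RNA was lower on every knockdown array, and the remaining signal differed between these arrays. Its probe, ILMN_1709479, gave raw intensities of 324.2, 533.2 and 374 on control arrays 1, 2 and 3 and of 280.8, 168.3 and 149.9 on knockdown arrays 1, 2 and 3. After background correction and quantile normalization the log2 intensities were 8.43, 8.21 and 8.42 in control cells and 7.29, 6.72 and 6.52 in knockdown cells. The groups did not overlap, and knockdown array 1 was the highest of its group by over 0.5 on the log2 scale. YAP1 thus stood at 47.8%, 32.3% and 28.1% of the control mean on the 3 knockdown arrays. The mean log2 intensity of YAP1 went from 8.35 ± 0.120 (SD, n = 3) in the controls to 6.84 ± 0.399 (SD, n = 3) with the hairpins, the widest spread of any member in either group. The log2 change was -1.51 ± 0.19 (SE), a 2.85-fold fall with a 95% interval of 2.10-fold to 3.85-fold, and the adjusted p in limma was 0.000564. Without knockdown array 1 the log2 change was -1.74. The raw signal of the knockdown arrays stayed above background, with a detection p-value listed as 0 on all 6 arrays.

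TEAD2, a TEAD family member known from early embryonic development in the mouse, was higher in knockdown cells. Its probe, ILMN_1682781, gave raw intensities of 359.8, 814.5 and 477.3 on the control arrays and of 1389.6, 1138.6 and 1157 on the knockdown arrays. Normalized log2 intensities were 8.63, 8.92 and 8.82 in control cells and 10.08, 10.19 and 10.35 in knockdown cells. The lowest knockdown array lay 1.16 above the highest control array, and the raw values did not overlap either. The means were 8.79 ± 0.149 (SD, n = 3) and 10.21 ± 0.134 (SD, n = 3). TEAD2 rose by 1.42 ± 0.13 (SE) on the log2 scale, 2.67-fold with a 95% interval of 2.19-fold to 3.26-fold (limma adjusted p = 8.18e-05).

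TEAD4, which in the mouse is needed for the first trophoblast cells of the embryo, moved the other way. Its probe, ILMN_1705301, gave raw intensities of 274.2, 541.4 and 362.8 on the control arrays and of 208.9, 188.1 and 180.9 on the knockdown arrays. Normalized log2 intensities were 8.105, 8.240 and 8.370 in control cells and 6.657, 6.996 and 7.008 in knockdown cells. The groups were 1.10 apart at their nearest arrays. The means were 8.24 ± 0.133 (SD, n = 3) and 6.89 ± 0.199 (SD, n = 3). TEAD4 fell by 1.35 ± 0.14 (SE) on the log2 scale, 2.55-fold with a 95% interval of 2.06-fold to 3.16-fold (limma adjusted p = 0.000162). TEAD4 stood at 33.4%, 42.3% and 42.6% of the control mean on knockdown arrays 1, 2 and 3. Knockdown array 1 had the most YAP1 signal of its group and the least TEAD4 signal. The arrays are called technical repeats, so differences between them cannot be read as different degrees of knockdown.

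VGLL4, the repressor that competes with YAP1 for TEAD proteins, did not pass the test. Its probe, ILMN_1768480, gave raw intensities of 271.8, 490.8 and 341.7 on the control arrays and of 487.5, 351.6 and 341.3 on the knockdown arrays. Normalized log2 intensities were 8.09, 8.08 and 8.27 in control cells and 8.32, 8.26 and 8.31 in knockdown cells, so control array 3 reached into the range of the knockdown arrays. The log2 difference was 0.15 ± 0.11 (SE) with a limma adjusted p of 0.334. Its 95% interval ran from -0.09 to 0.39, which leaves room for a rise of up to 1.31-fold and for a fall to 0.937 of the control level.

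**Figure D1:**
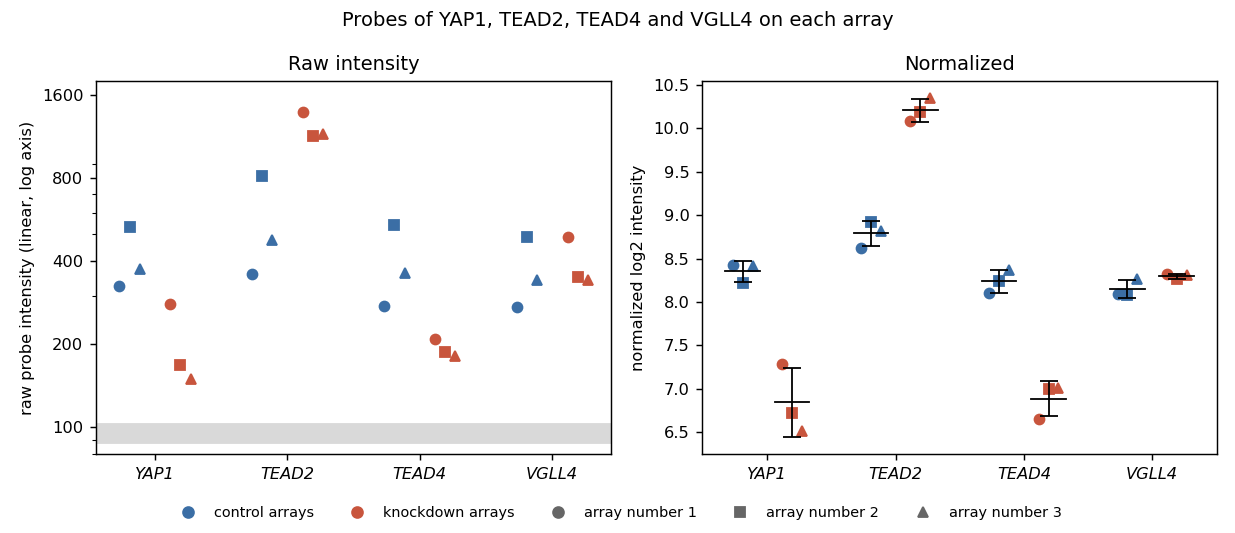
The left plot shows the raw intensity of each probe on each array on a log axis, with a grey band for the range of the 6 array medians, and the right plot the normalized log2 intensity with the mean and SD of 3 arrays. TEAD2 lies higher and YAP1 and TEAD4 lie lower on all 3 knockdown arrays (red) than on the control arrays (blue), while the VGLL4 points overlap.

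Of the 4 measured members 2 fell and 1 rose. Over all 20348 kept probes 32.4% were called at an adjusted p under 0.05, 16.5% lower and 15.8% higher in knockdown cells. Groups did not overlap for 3 of the 4 members, 2 of them lower and 1 higher in knockdown cells, against 45.5% of all kept probes, 22.8% lower and 22.8% higher. The absolute log2 change of YAP1 exceeded that of 97.5% of kept probes, that of TEAD2 97.1% and that of TEAD4 96.7%, whereas that of VGLL4 exceeded 31.2%. With 4 members, of which 1 was targeted, these shares describe the members and were not tested as a group.

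The opposite shifts of the TEAD genes were set against each other within each array. The log2 intensity of TEAD2 minus that of TEAD4 came to 0.52, 0.68 and 0.45 on control arrays 1 to 3 and reached 3.43, 3.19 and 3.34 on their knockdown counterparts. Probes of different genes are not on one scale, so only the shift between groups can be read. It was 2.77 on the log2 scale, a 6.82-fold change in the ratio, seen on 3 of 3 knockdown arrays. This was the only pair of measured TEAD genes. An exact two-sided permutation test gave p = 0.1, unaltered by adjustment over the 1 pair and the smallest value that 3 arrays against 3 can give. It reassigned arrays freely, without regard to their numbers, and within 3 numbered pairs the smallest two-sided p would be 0.25. TEAD2 lay above and TEAD4 below all control arrays on every knockdown array, so their ratio had to separate the groups. The result of this test was thus fixed beforehand and adds nothing to the tests of each gene.

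Direction and call were the same for all 4 members under each of 17 other settings, which included leaving out each array in turn. Changes to the detection filter, the prior, the block for array number or the probes per gene left the log2 change as reported. In those settings only the call could differ. YAP1 fell by 2.11-fold to 3.33-fold, TEAD4 by 1.95-fold to 2.69-fold, and TEAD2 rose by 2.43-fold to 2.81-fold. The smallest falls of YAP1 and TEAD4 came without background correction. The VGLL4 log2 change lay between 0.11 and 0.21 and missed the threshold in each setting, with adjusted p-values of 0.165 to 0.817.

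**Figure D2:**
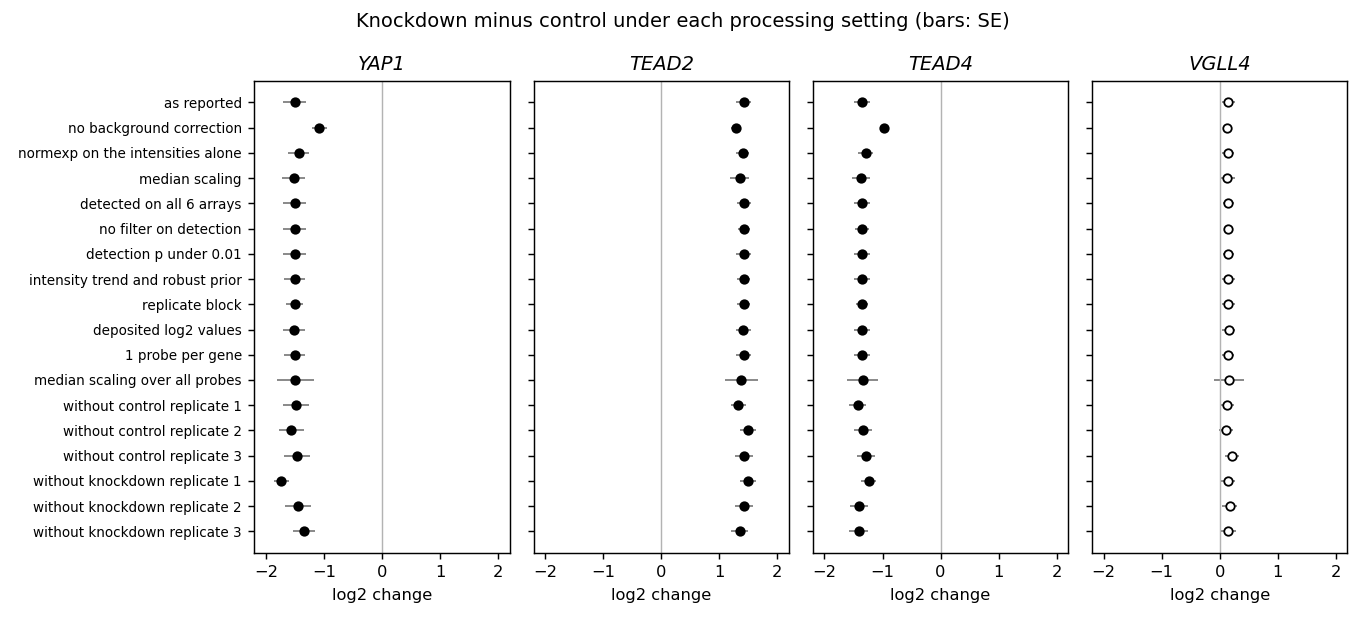
Points show the log2 change, knockdown minus control, of each measured member under each processing setting, with bars for the SE, filled where the limma adjusted p was under 0.05. YAP1 and TEAD4 stay below 0 and TEAD2 above 0 in every setting, and VGLL4 is open throughout.

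Other proteins that work beside YAP1 and the TEAD factors in the nucleus were examined as a list of 24 genes, of which 18 were measured by their brightest probe. Of these, 5 rose, 0 fell and 13 did not pass. Over all 11646 genes measured in the same way 37.0% were called, 18.9% higher and 18.1% lower. Its median log2 change was 0.24, against 0.03 over all genes. The share of the list called, 27.8%, was below the 37.0% of all genes called in either direction. All of it was higher in knockdown cells, where the share of all genes was 18.9%. The difference in direction was not tested. At an unadjusted p under 0.05 in limma, 7 of the 18 were higher and 0 lower, against 24.2% of all genes higher and 22.6% lower. MRTFB, a co-activator of SRF, showed the largest rise. Its log2 intensities were 5.95, 5.63 and 5.66 in control cells and 6.90, 6.75 and 6.86 in knockdown cells, a 2.12-fold rise (adjusted p = 0.00033). RUNX1, a DNA-binding factor with which YAP can interact, rose 1.74-fold from 6.41 ± 0.132 to 7.21 ± 0.176 (SD, n = 3, limma adjusted p = 0.0021). The related histone acetyltransferases CREBBP and EP300 rose 1.73-fold and 1.45-fold, with limma adjusted p-values of 0.0108 and 0.00409. Without background correction the rises were 1.48-fold for MRTFB, 1.40-fold for RUNX1, 1.61-fold for CREBBP and 1.16-fold for EP300.

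CTBP1, a co-repressor, rose by 0.39 on the log2 scale (adjusted p = 0.0249). It missed the threshold when control array 2 (0.0639) or 3 (0.0945) or knockdown array 2 (0.0743) or 3 (0.0918) was left out, and with median scaling (0.0861). HDAC1, a histone deacetylase, changed by -0.07 and WBP2, which binds the WW domains of YAP1, by -0.12, and neither passed. IRF2BP2, a partner of VGLL4, changed by 0.25 with an adjusted p of 0.147. MAX, the dimer partner of MYC, changed by -0.24 by its brightest probe and did not pass. Of its 4 kept probes another changed by -0.90 (limma adjusted p = 0.00434), and the rest by -0.23 and 0.25. With median scaling over all probes, a setting added after the data were seen, 1 gene of the list was called higher. No kept probe was named WWTR1, VGLL1, VGLL2, FAM181A or FAM181B, so TAZ and the remaining vestigial-like genes were not analysed here.

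Of 22 listed genes that YAP/TAZ are known to induce through TEAD factors 20 were measured, and 6 fell, 3 rose and 11 did not pass, with a median log2 change of -0.20. The list had 45.0% called, against 37.0% of all genes, of which 18.1% were lower and 18.9% higher. CCN1, a secreted matricellular protein, fell 6.71-fold, from 10.57, 10.41 and 10.66 on the control arrays to 7.83, 7.71 and 7.86 on the knockdown arrays. Knockdown array 1, with the highest YAP1 signal of its group, gave a CCN1 value between those of the other knockdown arrays. With arrays called technical repeats, this does not relate CCN1 to the degree of knockdown. IGFBP3, which binds insulin-like growth factors, fell 6.07-fold (adjusted p = 2.7e-06) and CCN2 1.94-fold (adjusted p = 0.00097). ANKRD1, a muscle ankyrin repeat protein, was detected on 3 control arrays and on 0 knockdown arrays. It passed the detection filter through the control arrays alone, so its direction among the 6 that fell was largely set by that filter. The fall of ANKRD1 was at least 3.24-fold under the background correction used but 1.65-fold without it, so this minimum does not hold across settings. The count of fallen genes was 3 without control array 2 or control array 3, where AXL (0.0824 and 0.0677) and CCDC80 (0.0738 and 0.0769) missed the threshold and ANKRD1 was detected on too few arrays to be tested. Without knockdown array 1, 2 or 3, AXL (0.0789, 0.0668 and 0.093) and CCDC80 (0.0635, 0.0509 and 0.0795) missed it as well. With no filter on detection AXL (0.0691) and CCDC80 (0.103) missed it too, as did CCDC80 without background correction (0.0746). The 3 that rose were NT5E (0.58 on the log2 scale), GADD45A (0.44) and MYOF (0.42), with limma adjusted p-values of 0.0227, 0.0303 and 0.0341. Among the 11 that did not pass were LATS2 (-0.52), AMOTL2 (-0.06), CRIM1 (0.03) and PTPN14 (0.12), each by its brightest probe. The count of risen genes was 0 or 1 without any 1 array.

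Upstream Hippo genes were measured for 16 of 19 listed, and 4 fell, 2 rose and 10 did not pass, with a median log2 change of -0.03. This was 37.5% of the list, near the 37.0% of all genes called, so the count itself is at background. FRMD6 and WWC1, scaffolds that promote Hippo kinase activity, fell 3.69-fold and 2.91-fold, with adjusted p-values of 6.65e-06 and 6.7e-05. MAP4K4, a kinase that can phosphorylate LATS kinases, fell 1.78-fold, from 7.10, 7.09 and 7.06 on the control arrays to 6.53, 6.17 and 6.05 on the knockdown arrays, and its other kept probe fell as well (-0.78 on the log2 scale, adjusted p = 0.00116). NF2 fell by 0.70 by its brightest probe, or by 0.25 without background correction, and by 0.54 by another probe. The brightest probe lay near background, with mean log2 intensities of 5.61 in control cells and 4.90 in knockdown cells. The remaining kept probe of NF2 changed by 0.07 and did not pass (limma adjusted p = 0.696). The series concerns cells deficient in NF2, and NF2 function was not measured. STK3, a core Hippo kinase, rose by 0.47 and TAOK2 by 0.37. STK3 missed the threshold when control array 1 (0.0595) or 3 (0.0517) or knockdown array 2 (0.0774) was left out, and with median scaling (0.0797). TAOK2 did so when control array 1 (0.102) or 3 (0.152) or knockdown array 2 (0.097) or 3 (0.142) was left out, with median scaling (0.109), without background correction (0.0802), with normexp on the intensities alone (0.0561) and with an intensity trend and robust prior (0.0656). Another of its probes changed by -0.07. The kinases TAOK1 and STK4 and the adaptor SAV1 changed by 0.01, -0.07 and -0.01 and did not pass. Of 10 muscle genes whose promoters are known for TEAD elements, 2 were measured, of which ACTA2, smooth muscle actin, fell 1.59-fold (adjusted p = 0.00479) and TNNC1 did not pass.

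**Figure D3:**
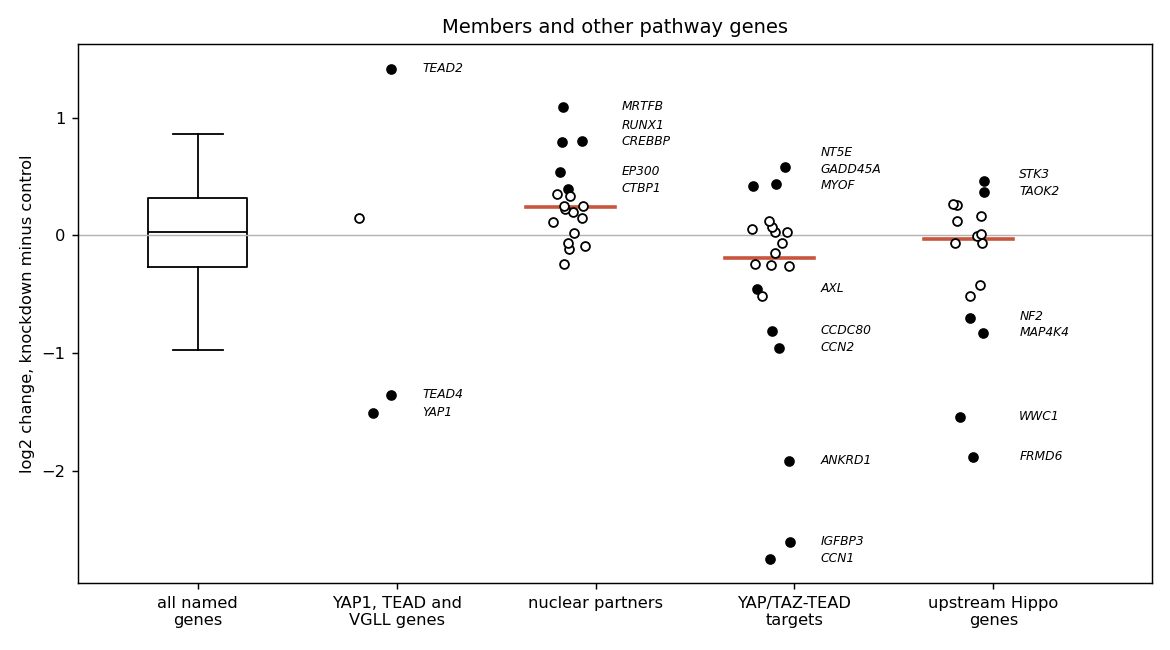
Each point is the log2 change, knockdown minus control, of 1 gene by its brightest probe, filled and named where the limma adjusted p was under 0.05, with red lines at list medians, and the box gives the quartiles and the 5th and 95th percentiles of all 11646 genes. TEAD2 (1.42), TEAD4 (-1.35) and YAP1 (-1.51) lie outside the range from -0.97 to 0.86 between those percentiles.

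Genes with the profile nearest to that of each called member were found by the root mean square difference of centred log2 values over the 6 arrays, which mostly reads the difference between groups. For TEAD4 they were SGO1, which protects centromeric cohesion (0.0467), HLA-DRB4 (0.0502), a gene of a family with near-identical members, and ACTN1, alpha-actinin (0.0525). For TEAD2 they were GRINA (0.0442), DPYD, which degrades pyrimidines (0.0448), and SELENOW, a selenoprotein (0.0529). YAP1 had no neighbour as close: CYFIP2, a subunit of the WAVE complex of actin assembly, came nearest (0.169), followed by ITPR3, a calcium channel of the endoplasmic reticulum (0.174), and KCNAB1, a potassium channel subunit (0.179). Within a difference of 0.2 lay 6 genes for YAP1, 165 for TEAD2 and 240 for TEAD4, of 11645 compared. The difference also takes in the spread between arrays of a group. That spread was widest for YAP1 on the knockdown arrays (SD 0.399), and its part in these distances was not tested.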

How the data were processed

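RNA from 6 arrays of SN12C cells was analysed. The deposited table of probe intensity is not normalized and carries a detection p-value per probe and array, per the file headers. Of its 48202 lines 887 without an identifier were left out. The deposited log2 table was made by the authors, with limma named in the submitters' processing notes without a version. Its 20348 probes were exactly those kept here, and its values were matched to within 7.37e-05 when the 887 lines were included in the same correction and normalization. The genome build of the probes is not given in the sources used here.

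Intensities were corrected with neqc (offset 16, quantile, log2), and a probe was kept when 3 or more arrays gave it a detection p-value under 0.05. The test was limma 3.58.1 (lmFit, eBayes) in R 4.3.3, two-sided, adjusted by Benjamini-Hochberg over all kept probes. Of the kept probes 15493 had 1 symbol and 4 had several. A listed gene was represented by its brightest kept probe. "At least" folds use the lowest detected value of each array. Array number limits the precision. The labels number arrays 1 to 3 in each group. Deviations from group means correlated at 0.633, 0.255 and 0.469 between arrays of the same number. Control array 3 and knockdown array 2 also correlated at 0.381, above the 0.255 of the arrays numbered 2. The main test did not pair arrays by number. A fit with a replicate block for array number was run as another setting. Named genes were the members, WWTR1, the 4 called genes of each list with the largest change, and the 3 nearest profiles of each called member. Other named list genes were chosen after their values were seen. Some listed markers are not reported here. The members and lists were chosen with earlier results of these data known.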

Additional observations from a re-analysis of the deposited data

How the results depend on the processing

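YAP1, TEAD2, TEAD4 and VGLL4 kept direction and call under all 17 settings, of which some could alter the call only. With the replicate block, the log2 changes were the same and the adjusted p-values were 0.000122 for YAP1, 3.29e-05 for TEAD2, 3.71e-05 for TEAD4 and 0.295 for VGLL4, and 40.9% of kept probes were called, so the block ended none of these calls. The share of kept probes called was 12.9% with no filter on detection and 22.6% to 30.3% with 1 array left out. Median scaling over all probes, added after the data were seen, called 7.64% of kept probes. It called 1 nuclear partner higher, 3 YAP/TAZ-TEAD targets lower and 0 higher, 2 upstream Hippo genes lower and 0 higher, and 0 muscle genes lower. Calls of MRTFB, CCN1, IGFBP3, ANKRD1, FRMD6 and WWC1 remained. RUNX1 (limma adjusted p = 0.0798), CREBBP (0.178), EP300 (0.198), CCN2 (0.103), MAP4K4 (0.146), NF2 (0.122) and ACTA2 (0.206) missed the threshold. So did CTBP1 (0.444), STK3 (0.436), TAOK2 (0.445), AXL (0.247), CCDC80 (0.159), NT5E (0.345), GADD45A (0.433) and MYOF (0.576). Median scaling over probes detected on all arrays called 1 target and 0 upstream genes higher. The upstream genes called higher numbered 1 without background correction, 1 with normexp on the intensities alone and 1 with an intensity trend and robust prior. With 1 array left out, 3 to 5 targets were lower and 0 to 1 higher, and 0 to 2 upstream genes were higher. The TEAD2 to TEAD4 shift was 2.25 without background correction and 2.77 with the deposited log2 values. The cause of these differences was not tested. Probes near background limit the folds of ANKRD1, EP300 and NF2.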
